A study of Mus musculus with 10 samples.

Results

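The 10 genes described here make up a large part of the machinery by which endothelial cells, the cells that line blood vessels, read vascular endothelial growth factor (VEGF) and form sprouts. They were chosen by name, as the receptors Kdr, Flt1 and Flt4, the co-receptors Nrp1 and Nrp2, the ligands Vegfa, Vegfc and Pgf, and the sprouting genes Esm1 and Cxcr4. All 22 array probes annotated to them were read, and they are 10 of 21946 genes with a probe. After a filter on dim probes 9 of the 10 entered the tests, among 16144 genes tested; Pgf did not pass the filter. Endothelial cells were obtained by flow sorting from the lungs of C57/Bl6 pups at postnatal day 6, a stage at which lung capillaries are still growing, and their RNA was hybridised to 10 Illumina beadchip arrays. The groups were 2 arrays of Evi-iECKO (floxed Evi alleles, Cdh5-CreERT2 positive), 3 arrays of Evi-WT (the same floxed alleles, Cre-negative), 3 arrays of Rspo3-iECKO (floxed Rspo3 alleles, Cdh5-CreERT2 positive) and 2 arrays of Rspo3-WT (floxed Rspo3, Cre-negative). All 4 groups thus carried floxed alleles, and the wild-type groups differed from the deleted ones in lacking the Cre recombinase, which the endothelial Cdh5 promoter drives and tamoxifen activates. The labels give neither the tamoxifen schedule nor whether Cre-negative mice received it, and they do not say if animals were pooled. The study asked which endothelial genes are regulated by both deletions. Evi, officially named Wls, carries Wnt proteins to the cell surface for secretion, and Rspo3 encodes R-spondin 3, a secreted amplifier of Wnt signals.

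VEGF-A, the product of Vegfa, acts on endothelium mainly through the tyrosine kinase receptor VEGFR2, the product of Kdr, while VEGFR1, the product of Flt1, binds the ligand tightly and signals weakly, and so acts largely as a trap. VEGF-C acts through VEGFR3, the product of Flt4, which is best known from lymphatic vessels and is also found in growing blood capillaries, and neuropilins hold ligand and receptor together. In the lung VEGF-A comes mostly from the alveolar epithelium, and endothelial cells at the tip of a sprout switch on genes such as Esm1 and Cxcr4 in response to it.

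The deleted genes were read before the VEGF genes. The brightest of 3 Wls probes read 4.85 and 4.68 in Evi-iECKO, against 5.68, 6.21 and 5.69 in Evi-WT, on the scale of log2 normalized intensity used throughout. Both deleted arrays lay below the Cre-negative ones, with a log2 fold change of -1.10 (SE 0.27) and an adjusted p of 0.357 in limma, a linear model fitted across all genes with Benjamini-Hochberg adjustment. A second Wls probe read 4.31 (not detected) and 4.84 in Evi-iECKO, against 5.87, 6.33 and 5.81 in Evi-WT. The third was detected on no array. Of the 2 Rspo3 probes, 1 was detected on no array and the other on 1 array, Evi-WT replicate 3, so the arrays do not check that deletion. The labelled cell type was checked by 12 pan-endothelial genes, among them Pecam1 and Cdh5, all of which were measured and 11 of which were detected on all 10 arrays. Markers of other cells were detected too. On all 10 arrays these were 5 of 12 measured for alveolar type 2 cells, the surfactant-making epithelium, 5 of 7 for alveolar type 1 cells, 2 of 4 for epithelium in general (Cdh1 and Cldn7), 2 of 10 for fibroblasts (Col1a2 and Mfap4), 4 of 8 for pericytes and smooth muscle (Cspg4, Rgs5, Acta2 and Des), 3 of 10 for leukocytes (Cd68, Csf1r and Lyz2) and 4 of 5 for erythroid cells and platelets. A summed level was taken for each marker list as the mean over its measured genes of the log2 value minus that gene's mean over all arrays. For the alveolar type 2 list it was -0.96 and 1.74 in Evi-iECKO, between -0.84 and -0.02 in Evi-WT, between -0.15 and 0.20 in Rspo3-iECKO, and -0.26 and 0.37 in Rspo3-WT. The Evi-iECKO arrays thus stood at opposite ends of this list. On the same lists Krt19 of epithelium, Tcf21 of fibroblasts, Pdgfrb of pericytes and Cd3g, S100a8 and Tyrobp of leukocytes were detected on no array.

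Most of the VEGF genes were well detected. Of the 22 probes 13 were detected on all 10 arrays, 18 passed the filter (a detection p-value under 0.05 on 2 arrays or more) and 3 were detected on none. The brightest probes of Kdr, Flt1, Flt4, Nrp1, Vegfa, Vegfc, Esm1 and Cxcr4 were each detected on every array, and that of Nrp2 on 9. Pgf, which encodes placental growth factor, a ligand of VEGFR1, has 1 probe, and it was detected on no array, with readings from 4.10 to 4.32. The arrays therefore give no level for Pgf, and no difference in it could be measured. In the 5 Cre-negative arrays the brightest Nrp1 probe stood between the 99.6th and 99.8th percentile of all 46237 probes, Flt1 between 97.4 and 98.4, Kdr between 95.2 and 97.4, Flt4 between 95.3 and 96.8, and Vegfa between 94.9 and 96.4. Esm1 stood between 92.6 and 98.2, Cxcr4 between 88.9 and 92.6, Vegfc between 84.7 and 91.2, and Nrp2 between 8.23 and 73.5. Brightness depends on the probe as well as on the transcript, so these percentiles place each probe on its array and do not rank the genes against each other.

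**Figure D1:**
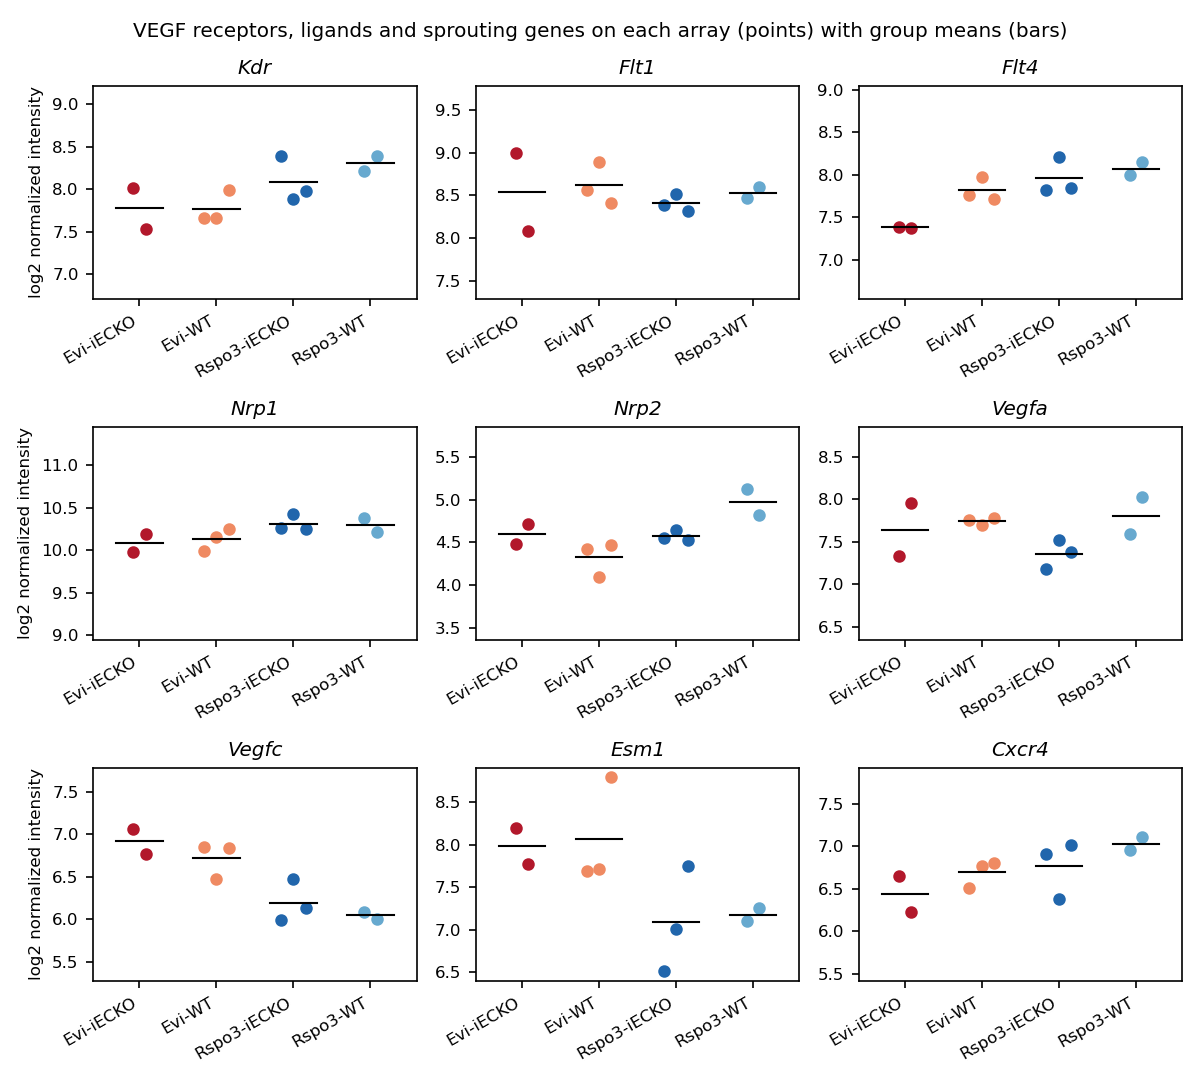
Log2 normalized intensity of the brightest probe of 9 genes (vertical axes, each spanning the same range of log2 units but with its own offset) in the 4 groups, 1 point per array and a bar at the group mean. Flt4 reads 7.38 on both Evi-iECKO arrays, below all 3 Evi-WT arrays, and Vegfc lies higher in the Evi/Wls line than in the Rspo3 line.

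Among the receptors neither deletion came with a difference that passed the threshold. Kdr, the main signalling receptor, read 8.02 and 7.53 in Evi-iECKO, against 7.66, 7.66 and 7.99 in Evi-WT. It read 8.39, 7.89 and 7.98 in Rspo3-iECKO, against 8.22 and 8.40 in Rspo3-WT. On this brightest probe the groups overlapped in each line (a dimmer Kdr probe is given below). The log2 fold change was 0.01 (95% interval -0.47 to 0.48) for the Evi/Wls deletion and -0.22 (-0.70 to 0.25) for the Rspo3 deletion. Flt1, the trap receptor, read 8.99 and 8.08 in Evi-iECKO, against 8.56, 8.89 and 8.42 in Evi-WT, so that the Evi-iECKO arrays stood on either side of all 3 Cre-negative ones. Readings of 8.38, 8.52 and 8.32 in Rspo3-iECKO stood against 8.47 and 8.60 in Rspo3-WT. Flt1 differed by -0.09 (-0.63 to 0.45) in the Evi/Wls line and by -0.13 (-0.67 to 0.41) in the Rspo3 line.

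On the brightest probes Flt4, the VEGF-C receptor, was the receptor whose groups parted. It read 7.38 and 7.38 in Evi-iECKO, against 7.77, 7.97 and 7.71 in Evi-WT, and 7.82, 8.21 and 7.84 in Rspo3-iECKO, against 7.99 and 8.15 in Rspo3-WT. Both Evi-iECKO arrays lay below every other array, while the groups of the Rspo3 line overlapped. The log2 fold change for the Evi/Wls deletion was -0.44 (SE 0.18, 95% interval -0.83 to -0.04), 1.35-fold lower, with a limma p of 0.0347 before adjustment and 0.584 after it over all genes, so the difference did not pass. A dimmer Flt4 probe did not show it, as given below. In RNA from a sorted population, fewer cells carrying a transcript and less transcript per cell cannot be told apart. Lymphatic endothelial cells are rich in VEGFR3, and of their 7 markers all were measured but only 1 was detected on all arrays. The summed level of that list was 0.12 and 0.09 in Evi-iECKO, against -0.06 to 0.07 in Evi-WT, and its part in the Flt4 value was not tested. For the Rspo3 deletion Flt4 differed by -0.12 (SE 0.18), and the difference between the deletion effects, Rspo3 minus Evi/Wls, was 0.32 (SE 0.26, adjusted p = 0.925 in limma).

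Nrp1, the co-receptor of VEGFR2, was the steadiest of the genes across the arrays on its brightest probe (a second probe is given below). It read 9.97 and 10.20 in Evi-iECKO, against 9.99, 10.16 and 10.24 in Evi-WT, and 10.26, 10.42 and 10.24 in Rspo3-iECKO, against 10.38 and 10.22 in Rspo3-WT. All 10 readings lay within 9.97 to 10.42 and the groups overlapped in each line. The differences were -0.05 (95% interval -0.42 to 0.33) for the Evi/Wls deletion and 0.01 (-0.37 to 0.39) for the Rspo3 deletion. Nrp2, the co-receptor that pairs with VEGFR3, was close to the detection limit. Its brightest probe read 4.48 and 4.72 in Evi-iECKO, against 4.42, 4.09 and 4.47 in Evi-WT, with the 4.09 of Evi-WT replicate 2 not detected. It read 4.55, 4.65 and 4.53 in Rspo3-iECKO, against 5.12 and 4.83 in Rspo3-WT. The deleted arrays thus lay above their controls in the Evi/Wls line, by 0.28 (SE 0.19), and below them in the Rspo3 line, by -0.40 (SE 0.19), with a limma p of 0.053 before adjustment. The difference between the effects was -0.68 (SE 0.27), with a limma p of 0.0247 before adjustment and 0.789 after it. Opposite non-overlap of this kind was found for 379 of 16144 genes, 2.35%. The other 3 Nrp2 probes past the filter gave differences between -0.14 and 0.26 for the Rspo3 deletion and between -0.03 and 0.12 for the Evi/Wls deletion, and they were detected on 3 to 7 arrays.

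Of the ligands, Vegfa is measured by 3 probes, all detected on every array. The brightest read 7.33 and 7.96 in Evi-iECKO, against 7.75, 7.70 and 7.78 in Evi-WT. It read 7.18, 7.53 and 7.38 in Rspo3-iECKO, against 7.59 and 8.02 in Rspo3-WT. The Evi-iECKO arrays stood on either side of the Evi-WT arrays, and all 3 Rspo3-iECKO arrays lay below both Rspo3-WT arrays. The log2 fold change was -0.10 (95% interval -0.58 to 0.38) for the Evi/Wls deletion and -0.44 (SE 0.22, -0.92 to 0.03) for the Rspo3 deletion. The Rspo3 value had a limma p of 0.0647 before adjustment and an adjusted p of 1. Without Rspo3-WT replicate 2 the Rspo3 value was -0.23, and without Rspo3-WT replicate 1 it was -0.66. The summed level of the alveolar type 2 list was -0.96 on Evi-iECKO replicate 1, where Vegfa read 7.33, and 1.74 on replicate 2, where it read 7.96. In Rspo3-WT the order was the other way, with 0.37 where Vegfa read 7.59 and -0.26 where it read 8.02, and in Evi-WT Vegfa stayed within 7.70 to 7.78 over levels of -0.84 to -0.02. The part of epithelial RNA in these values was not tested.

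Vegfc, whose product is the ligand of VEGFR3, read 7.07 and 6.77 in Evi-iECKO, against 6.85, 6.47 and 6.83 in Evi-WT, and 5.99, 6.47 and 6.13 in Rspo3-iECKO, against 6.09 and 6.01 in Rspo3-WT. Deleted and Cre-negative arrays overlapped in each line, with differences of 0.20 (95% interval -0.24 to 0.64) for the Evi/Wls deletion and 0.15 (-0.29 to 0.59) for the Rspo3 deletion. The larger contrast lay between the lines, as taken up below.

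Of the sprouting genes, Esm1 had the widest spread between arrays of 1 group. Esm1, which encodes the secreted proteoglycan endocan, read 8.19 and 7.78 in Evi-iECKO, against 7.69, 7.72 and 8.79 in Evi-WT, with the highest reading in a Cre-negative array. It read 6.51, 7.01 and 7.74 in Rspo3-iECKO, against 7.10 and 7.25 in Rspo3-WT, so that the deleted arrays stood on either side of the controls. Its differences were -0.08 (95% interval -0.88 to 0.71) for the Evi/Wls deletion and -0.09 (-0.89 to 0.71) for the Rspo3 deletion, the widest intervals among the 9 genes. Cxcr4, the receptor of the chemokine Cxcl12, read 6.65 and 6.23 in Evi-iECKO, against 6.50, 6.77 and 6.80 in Evi-WT, and 6.90, 6.38 and 7.01 in Rspo3-iECKO, against 6.95 and 7.11 in Rspo3-WT. The groups overlapped in each line, and the differences of -0.25 (-0.74 to 0.23) and -0.26 (-0.75 to 0.22) for the Evi/Wls and Rspo3 deletions were alike in size and within the spread between arrays.

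Across the 9 genes tested, no difference with either deletion passed the threshold, and none did among all genes. For the Evi/Wls deletion 3 genes read higher and 6 lower, with a median of -0.08 against 0.0090 over all genes. None passed at an adjusted p below 0.05 in limma (0% of all genes did), and 1 of 9, Flt4, had an unadjusted p below 0.05, against 7.99% of all genes. The deleted and control arrays did not overlap for 2 of 9, Flt4 and Nrp2, against 20.0% of all genes, and both shares were close to the background. For the Rspo3 deletion 2 genes read higher and 7 lower, with a median of -0.13 against -0.0076 over all genes. Scaling the arrays to a common median in place of quantile normalization moved the median of all genes by 0.12 in this comparison and turned the split to 7 higher and 2 lower, with a median of 0.18 against 0.11 over all genes. None passed in limma (0% of all genes), none had an unadjusted p below 0.05 (4.35% of all genes), and the groups did not overlap for Nrp2 and Vegfa, 2 of 9 against 22.6% of all genes.

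**Figure D2:**
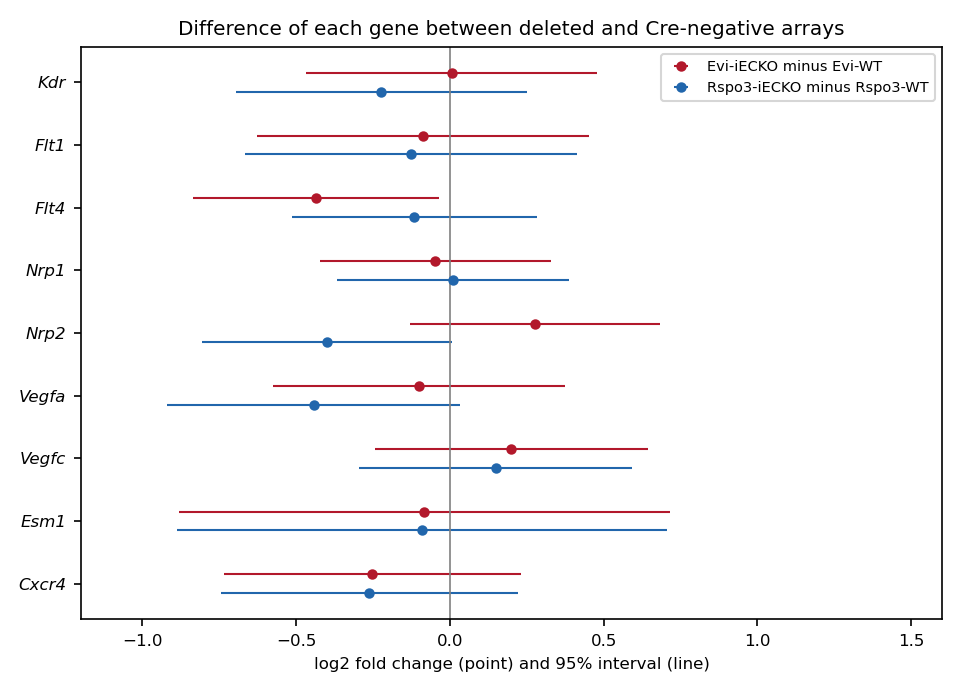
Log2 fold change of 9 genes (points, horizontal axis) with 95% intervals (lines), for Evi-iECKO minus Evi-WT (red, above) and Rspo3-iECKO minus Rspo3-WT (blue, below). Every interval except that of Flt4 in the Evi/Wls line, -0.83 to -0.04, includes 0.

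The average of the Evi/Wls and Rspo3 effects, which addresses regulation by both deletions, was negative for 8 of the 9 genes and positive for Vegfc alone, with a median of -0.11 against -0.0009 over all genes, and under median scaling it was negative for 4, with a median of 0.0009 against 0.04. It called none of the 9 in limma (0% of all genes), and none had an unadjusted p below 0.05 (5.82% of all genes). Flt4 read -0.28 (SE 0.13, adjusted p = 0.875 in limma), Vegfa -0.27 (SE 0.15), Cxcr4 -0.26 (SE 0.16) and Vegfc 0.17 (SE 0.14). The remaining 5 lay between -0.11 and -0.02. The summed level of the 10 measured fibroblast markers was higher in deleted than in Cre-negative arrays of each line without overlap, at -0.05 to 0.11 in Evi-iECKO against -0.22 to -0.14 in Evi-WT, and at 0.11 to 0.18 in Rspo3-iECKO against -0.05 to 0.05 in Rspo3-WT. Only 2 of these 10 markers were detected on all arrays, so much of this level comes from genes not detected throughout. The part of fibroblast RNA in the values of the VEGF genes was not tested. The test of the difference between the effects called none of the 9 in limma either (0% of all genes), and Nrp2 was the 1 gene with an unadjusted p below 0.05, against 6.06% of all genes.

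Probes of the same gene did not always give the same difference. The second Vegfa probe read 6.92 and 7.56 in Evi-iECKO, against 7.94, 7.71 and 7.76 in Evi-WT. Both deleted arrays lay below all controls, with a log2 fold change of -0.56 (SE 0.20), where the brightest Vegfa probe gave -0.10 and the third Vegfa probe -0.15. The limma p of the second probe was 0.0159 before adjustment and 0.517 after it over all probes. In the Rspo3 line the second probe read 7.40, 7.26 and 7.43 in Rspo3-iECKO, against 7.54 and 7.54 in Rspo3-WT, a difference of -0.18 (SE 0.20). All 3 Vegfa probes pointed lower with each deletion, by -0.44 to -0.10 for the brightest, -0.56 to -0.18 for the second and -0.15 to -0.11 for the third, and none passed. Vegfa has several transcript forms, and the brightest probe is annotated to another transcript record than the other two.

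The dimmer Flt4 probe read 5.75 and 6.16 in Evi-iECKO, against 5.45, 6.49 and 5.75 in Evi-WT, so the groups overlapped. It gave 0.06 (SE 0.29) where the brightest Flt4 probe gave -0.44. In the Rspo3 line it read 6.60, 6.27 and 6.54 in Rspo3-iECKO, against 5.72 and 6.27 in Rspo3-WT, with the deleted arrays above the controls by 0.47 (SE 0.29, adjusted p = 1 in limma). The dimmer Flt1 probe read 7.10 and 6.16 in Evi-iECKO, against 7.04, 7.28 and 7.46 in Evi-WT, with a difference of -0.63 (SE 0.25, adjusted p = 0.57 in limma). The 6.16 of Evi-iECKO replicate 2 was the 1 deleted reading below all controls. Probes of Kdr and Nrp1 gave differences within each other's intervals in each line. The dimmer Kdr probe was near the detection limit and detected on 7 arrays, so it is a weak check of the brightest. It read 4.46, 4.47 and 4.59 in Rspo3-iECKO, below the 4.83 and 4.75 of Rspo3-WT, by -0.29 (SE 0.21). The second Nrp1 probe read 9.80 and 9.93 in Evi-iECKO, below the 10.01, 10.18 and 10.02 of Evi-WT, by -0.21 (SE 0.17). Neither difference passed.

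**Figure D3:**
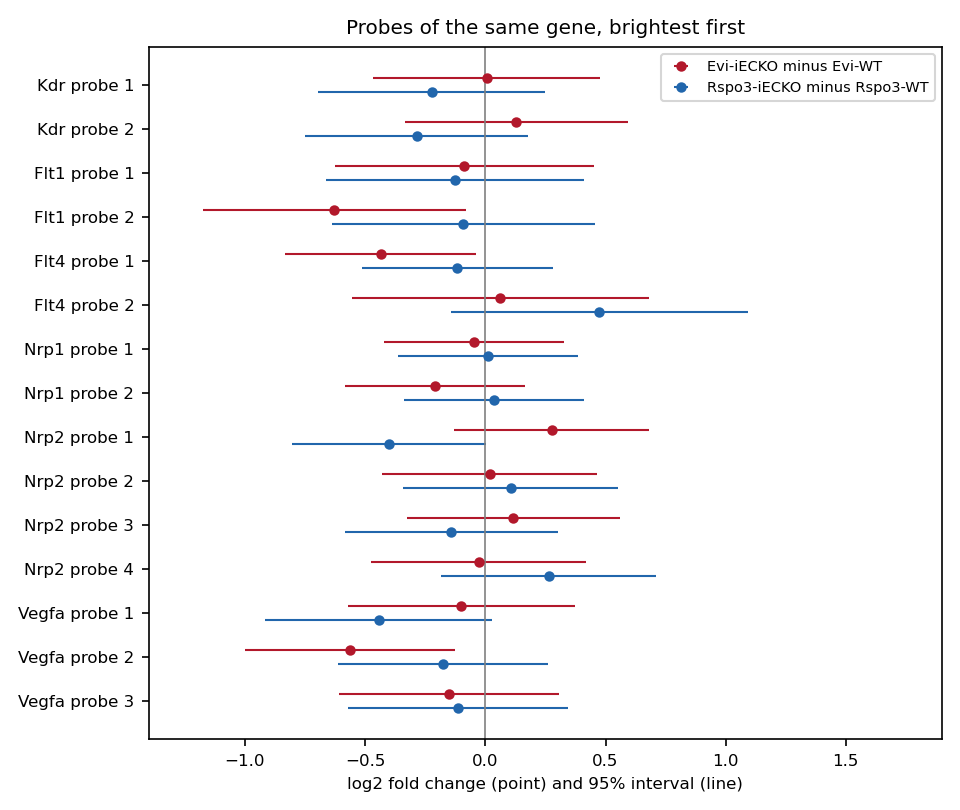
Log2 fold change (points) with 95% interval (lines) of each probe past the filter for the genes with several probes, ordered from the brightest within a gene, for Evi-iECKO minus Evi-WT (red, above) and Rspo3-iECKO minus Rspo3-WT (blue, below). The probes of Flt4 differ in direction in each line, at -0.44 and 0.06 for the Evi/Wls deletion and -0.12 and 0.47 for the Rspo3 deletion.

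The 1 call among the VEGF genes lay between the mouse lines and not between deleted and Cre-negative cells. The comparison of the lines was added after the data were seen, and its p-values do not allow for that choice. Its median SE over the 9 genes was 0.15, against 0.22 for each deletion. Vegfc was higher on the Evi/Wls arrays than on the Rspo3 arrays, averaged over deleted and Cre-negative groups, by 0.69 on the log2 scale (SE 0.14, 95% interval 0.38 to 1.01), 1.62-fold. Its limma p was 0.000384 before adjustment and 0.0499 after it, just under the threshold, and the adjusted p ranged from 0.0324 to 0.293 over the alternatives tried. The call was lost under 6 other ways of processing and on leaving out any 1 array other than Evi-iECKO replicate 2, with differences of 0.62 to 0.78 over the arrays left out and 0.25 under median scaling. The 5 Evi/Wls arrays read 6.47 to 7.07 and the 5 Rspo3 arrays 5.99 to 6.47, touching only at Evi-WT replicate 2 and Rspo3-iECKO replicate 2. Vegfc was the 1 of 9 genes called, against 0.774% of all genes (125 genes). Esm1 differed in the same direction by 0.90 (SE 0.26, adjusted p = 0.122 in limma), and the receptors Flt4 by -0.41 (SE 0.13, adjusted p = 0.15) and Kdr by -0.42 (SE 0.15, adjusted p = 0.212). These are values of the brightest probes, and the dimmer ones gave -0.31 (SE 0.20) for Flt4 and -0.14 (SE 0.15) for Kdr. The brightest Nrp2 probe gave -0.31 (SE 0.13, adjusted p = 0.285), but the other 3 gave 0.10 to 0.21, and the value was 0.0919 without Rspo3-WT replicate 1. Esm1, Flt4, Kdr and Nrp2 did not pass. Under median scaling Kdr at -0.92 and Flt4 at -0.90 did, but so did 2927 of 16144 genes, 2872 of them lower. The median of all genes was then -0.13. Nrp1 gave -0.20 (SE 0.12) on its brightest probe and -0.33 (SE 0.12, adjusted p = 0.216 in limma over all probes) on its second. In all 5 of 9 genes had an unadjusted p below 0.05, against 15.3% of all genes, and none had lines that did not overlap, against 3.87% of all genes.

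The Cre-negative groups alone, Evi-WT minus Rspo3-WT, hold no deleted array, but their arrays also enter the comparison of the lines. Vegfc differed by 0.67 (SE 0.20), Esm1 by 0.89 (SE 0.37), Kdr by -0.54 (SE 0.22) and Nrp2 by -0.65 (SE 0.19), each with an unadjusted limma p below 0.05, 4 of 9 genes against 8.81% of all genes. The Nrp2 value was 0.0642 without Rspo3-WT replicate 1, and the other 3 Nrp2 probes gave 0.09 to 0.24. None passed after adjustment, the adjusted p-values being 0.335, 0.514, 0.504 and 0.301 in limma, while 0.0372% of all genes (6 genes) did. On the brightest probes the groups did not overlap for 6 of 9 genes, these 4 with Flt4 and Cxcr4, against 25.5% of all genes. The dimmer probes of Kdr, at -0.34 (SE 0.21), and Flt4, at -0.10 (SE 0.29), had overlapping groups. Line, litter and any batch of sorting or hybridisation cannot be told apart here. The share of probes detected was 46.5% to 48.6% on the Evi/Wls arrays and 49.8% to 51.3% on the Rspo3 arrays, and the 75th percentile of intensity was 101 to 120 against 117 to 135. The summed level of the 12 pan-endothelial genes was -0.24 to -0.0044 on the Evi/Wls arrays and 0.04 to 0.27 on the Rspo3 arrays, without overlap. The part of these differences in the values of Kdr, Flt4 and Vegfc was not tested.

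**Figure D4:**
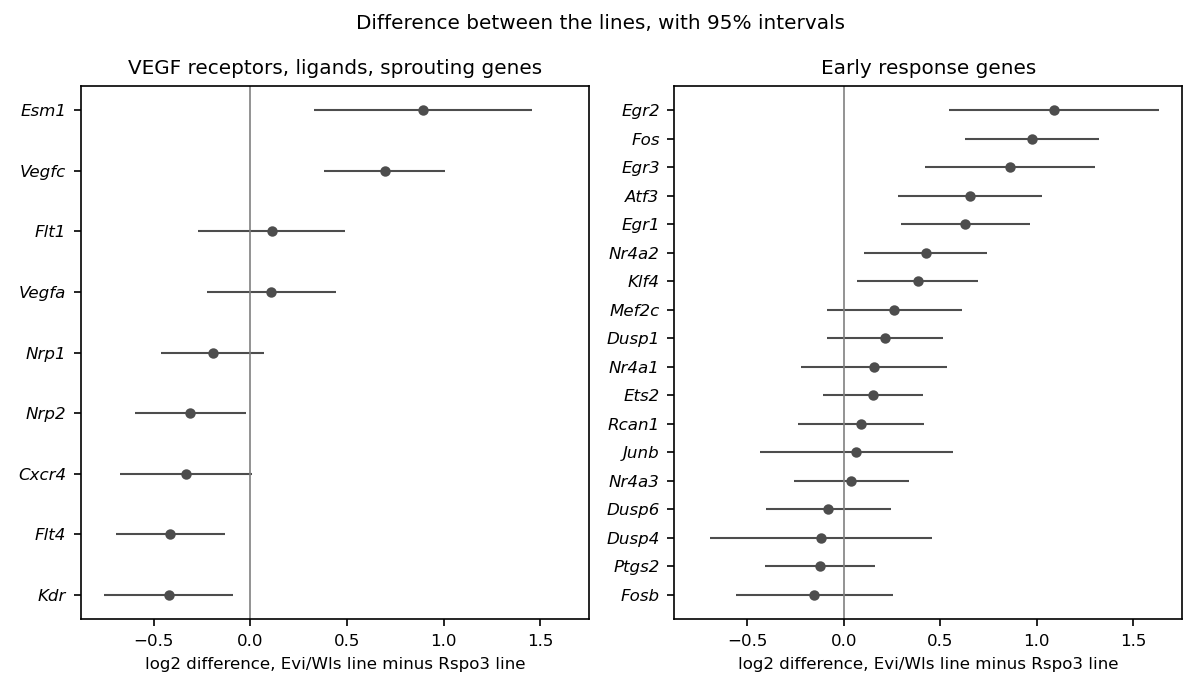
Difference in log2 normalized intensity between the Evi/Wls line and the Rspo3 line (points, horizontal axis) with 95% intervals (lines), for the VEGF receptors, ligands and sprouting genes (left) and for early response genes (right). Vegfc at 0.69 and Fos at 0.98 are the genes shown that passed the adjusted threshold, and Kdr and Flt4 lie below 0.

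The other genes of the pathway were read as lists around the 9 genes. Early genes that VEGF induces within hours in endothelium, which serum, stress and cell isolation induce as well, were higher in the Evi/Wls line for 14 of 18 measured, with a median of 0.19 against 0.03 over all genes. Under median scaling they were higher for 7 of 18, with a median of -0.16 against -0.13, so the direction of the list depends on the scaling. Fos, an AP-1 transcription factor, passed at 0.98 (SE 0.16, adjusted p = 0.0239 in limma). It read 8.54 and 8.05 in Evi-iECKO and 8.16, 7.99 and 7.48 in Evi-WT, against 7.08, 7.02 and 7.19 in Rspo3-iECKO and 7.21 and 7.03 in Rspo3-WT, with every Evi/Wls array above every Rspo3 array. Under median scaling Fos read 0.50 and did not pass (adjusted p = 0.074), and without Rspo3-iECKO replicate 1 or 2, Rspo3-WT replicate 1 or 2, or Evi-WT replicate 2 its adjusted p lay between 0.0551 and 0.0827. Egr2 read 1.09, Egr3 0.86 and Egr1 0.63 without passing (adjusted p = 0.0657, 0.069 and 0.0785 in limma), and 7 of the 18 had an unadjusted p below 0.05, all in this direction, against 15.3% of all genes. Among 38 measured genes of the signalling chain below the receptors 20 were higher and 18 lower, against 5 higher and 33 lower under median scaling (median -0.27 against -0.13 over all genes). Bmx, a Tec-family kinase gene of arterial and activated endothelium, passed at 1.07 (SE 0.19, adjusted p = 0.0297 in limma), reading 6.36 to 6.71 on the Evi/Wls arrays and 4.81 to 6.19 on the Rspo3 arrays. Its call was lost without Rspo3-iECKO replicate 1 or 2, Rspo3-WT replicate 1, or Evi-WT replicate 2 (adjusted p = 0.0508 to 0.106), and with the mean of all its probes it read 0.53 (adjusted p = 0.123). Fos, Bmx and the Egr genes were named after their values were seen.

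With the deletions these lists gave no call. In the mean of both effects early VEGF-induced genes were higher for 14 of 18 measured (median 0.09), tip cell and sprouting genes other than those above for 14 of 24 (median 0.02), and genes below the receptors for 19 of 38 (median 0.0037), against a median of -0.0009 over all genes. Under median scaling these were 15 of 18 (median 0.18), 18 of 24 (median 0.12) and 27 of 38 (median 0.10), against 0.04. An unadjusted p below 0.05 was reached by 1 of 18, 1 of 24 and 2 of 38, shares near the 5.82% of all genes. Klf4, a transcription factor of flow-exposed endothelium, read 0.32, Nid1, a basement membrane gene, 0.32, and Shc1, an adaptor of receptor kinases, 0.30. By line, Klf4 differed by 0.54 with the Rspo3 and 0.09 with the Evi/Wls deletion, and Shc1 by 0.05 and 0.55. Nid1 read 7.49 and 7.65 in Evi-iECKO, against 6.86, 6.86 and 7.04 in Evi-WT, a difference of 0.65 (SE 0.17, adjusted p = 0.409 in limma). Both Evi-iECKO arrays lay above the controls, and the difference in the Rspo3 line was -0.02 (SE 0.17). Pik3ca, a catalytic subunit of PI3-kinase, read 0.45 and was detected on 3 arrays only. Of genes that did not reach that level, the phosphatase gene Dusp4 read 0.37 and the p53-induced Trp53i11 0.51. On the other side stood Fosb at -0.26 and Ptgs2 at -0.07 among early genes, the transcription factor gene Ets1 at -0.26 and Rgcc at -0.25 among tip cell genes, and Bmx at -0.32 and the Ras inhibitor gene Rasa1 at -0.30 below the receptors. Bmx differed by -0.59 with the Rspo3 deletion and by -0.05 with the Evi/Wls deletion.

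Genes that sense low oxygen, which raises Vegfa transcription, were listed together with genes that low oxygen induces, such as Hilpda and Ankrd37. In the mean of both effects 11 of 14 measured were lower, with a median of -0.10, and 3 had an unadjusted p below 0.05, all lower, against 5.82% of all genes. Median scaling left 7 of 14 lower, with a median of -0.0019 against 0.04 over all genes. Hilpda, a lipid droplet protein gene induced by hypoxia, read 6.88 and 7.60 in Evi-iECKO, against 7.80, 7.37 and 7.81 in Evi-WT, and 7.18, 7.08 and 6.86 in Rspo3-iECKO, against 7.84 and 7.74 in Rspo3-WT. All 3 Rspo3-iECKO arrays lay below both controls and the Evi/Wls groups overlapped. The joint value was -0.59 (SE 0.16, adjusted p = 0.58 in limma), and that of Ankrd37, another hypoxia-induced gene, was -0.64 (SE 0.22, adjusted p = 0.684). The prolyl hydroxylase genes Egln1 and Egln2, whose products mark hypoxia-inducible factors for breakdown, read 0.41 and 0.18 without reaching an unadjusted p below 0.05. Among 13 measured further ligands and binding partners 11 were lower (median -0.06), and 8 under median scaling. The semaphorin gene Sema3f read 0.23, the phosphatase gene Ptprj 0.01 and the syndecan gene Sdc2 -0.21. Sema3c, a semaphorin that binds neuropilins, read 6.72 and 7.07 in Evi-iECKO, against 7.32, 8.34 and 7.94 in Evi-WT, a difference of -0.97 (SE 0.27, adjusted p = 0.411 in limma), while its difference in the Rspo3 line was 0.02 (SE 0.27). The difference between these effects was 0.99 (SE 0.38, adjusted p = 0.789). Over the alternatives that left no array out, the Evi/Wls value of Sema3c lay between -1.06 and -0.29. Hilpda and Sema3c also stand on the list of general capillary markers, whose summed level was -0.31 and -0.15 in Evi-iECKO, against 0.05 to 0.10 in Evi-WT. In the Rspo3 line that level was -0.11 to 0.08 in Rspo3-iECKO, against 0.03 to 0.23 in Rspo3-WT. Whether the share of general capillary cells has a part in these values was not tested.

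The genes whose array-to-array pattern was most like that of a receptor or of Vegfc were listed as a description, over 10 arrays and 16143 other genes, after each group's mean was taken off. For Kdr they were Coro6, Olfr1105 and Rasl10a, with Pearson's r of 0.98, 0.98 and 0.97, and for Flt1 they were Wwp2, Mss51 and Klk5, with r of 0.98 each. For Vegfc they were Ugt2b36, Cby1 and Zkscan8, with r of 0.98, 0.98 and 0.97. Over the plain values the same pairs gave r of 0.20 to 0.71 for Kdr, 0.78 to 0.83 for Flt1 and -0.07 to 0.55 for Vegfc. None of the other VEGF genes stood among them, and each pair shares the same 10 arrays, with 4 group means taken off. Each r was picked as one of the highest among 16143, so its size alone is no sign of shared regulation.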

How the data were processed

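RNA of the sorted cells was amplified by NuGEN single primer isothermal amplification and labelled with biotin, per the labels' protocols. The authors deposited non-normalized mean bead intensities of each probe on each array beside a detection p-value, per the file headers. They also deposited normalized intensities on a linear scale. Neither the way these were normalized nor that in which the deposited detection p-values were computed is stated in the sources used here.

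In R 4.3.3 with limma 3.58.1 the deposited intensities were background-corrected and quantile-normalized by neqc (offset 16), which infers negative controls from the detection p-values, on the log2 scale. The filter kept 30017 of 46237 probes, those whose detection p-value was under 0.05 on 2 arrays or more. Gene symbols came from the platform annotation, updated through RefSeq names of GRCm38.p6; 35784 probes had 1 symbol and 10453 none. The brightest probe stood for a gene. Linear models with 1 mean per group took in all 10 arrays, with two-sided tests adjusted by Benjamini-Hochberg at 0.05 over 16144 genes. The fits were tested on simulated arrays. Figures used Python 3.11.15 and matplotlib 3.10.9.

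Comparisons were Evi-iECKO minus Evi-WT, Rspo3-iECKO minus Rspo3-WT, their mean, their difference (Rspo3 effect minus Evi/Wls effect), Evi-WT minus Rspo3-WT, and the Evi/Wls line minus the Rspo3 line. The last, and sex by Xist as a factor, were added after seeing the data; both sexes stood in every group. The genes and lists were chosen with earlier results of these data known. Named were the 10 genes with all their probes, Wls and Rspo3, per list the 2 genes per direction of smallest joint p, and the 3 genes most like Kdr, Flt1 and Vegfc; others are said to be named after their values were seen. The labels do not say whether samples were separate animals, so the p-values reflect only how far these samples spread. The number of arrays limits the precision. No pairing by replicate number was established. Deviations from group means of same-numbered arrays correlated at -0.02 and 0.0002 in the Rspo3 line and 0.13 and -0.12 in the Evi/Wls line. Each line has a group of 2 arrays, whose deviations mirror each other, so these values cannot settle whether arrays were paired. Alternatives were other background corrections, scalings, filters and variance priors, the normalized values of the authors, averaging a gene's probes, array weights, a replicate block, the arrays of 1 line, and leaving out each array.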

Additional observations from a re-analysis of the deposited data

Results flagged for a closer look

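Nrp2, the co-receptor of VEGFR3, was picked out because all deleted arrays moved one way in 1 line and the opposite way in the other. The Rspo3 deletion effect minus the Evi/Wls deletion effect was -0.68 on the log2 scale (SE 0.27), with a limma p of 0.0247 before adjustment and an adjusted p of 0.789 over all genes, so the difference did not pass. It came from the brightest of 4 Nrp2 probes past the filter, a probe near the detection limit and not detected on Evi-WT replicate 2. Without Rspo3-WT replicate 1, which read 5.12, the difference was -0.06, and with the mean of all Nrp2 probes it was -0.14. Groups of 2 or 3 arrays are too small for a test of single outlying arrays, so none was made.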

How the results depend on the processing

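No VEGF gene passed in either deletion, in their mean, in their difference or between the wild-type groups under any alternative run. Of 1260 values under the alternatives, of the 9 VEGF genes and 10 other named genes, 1170 kept their direction and their side of the threshold and 49 changed sign, 22 of them without an array being left out. The other 41, of which 19 were of VEGF genes, crossed the threshold, all of them between the lines. The cause of these changes was not tested.

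Median scaling moved the median of all genes by 0.12 for the Rspo3 deletion, 0.15 for the difference of the effects, -0.11 between the wild-type groups and -0.17 between the lines. Under it the Rspo3 values were 0.0823 for Kdr, 0.18 for Flt1, 0.18 for Flt4, 0.20 for Esm1 and 0.0149 for Cxcr4, the Evi/Wls value of Kdr was -0.0804, and the mean effects were 0.0009 for Kdr, 0.0121 for Flt1, 0.0667 for Nrp1 and 0.0144 for Esm1. Flt1 was -0.20 between the wild-type groups and -0.37 between the lines, and Vegfa -0.38 between the lines. The mean of all probes turned Flt4 to 0.18 for the Rspo3 deletion, Nrp2 to 0.0263 in the mean effect and 0.0413 between the lines, and Vegfa to 0.13 between the wild-type groups. Sex as a factor gave -0.0013 for Nrp1 in the Rspo3 line, and normexp without detection p gave 0.0028 for Nrp2 in the mean effect. The replicate block, for which no pairing was established, gave 0.0088 for Nrp1 and 0.28 for Esm1 with the Evi/Wls deletion and 0.0256 for Nrp1 in the mean effect, and could not be fitted between the lines or wild-type groups. The Evi/Wls value of Flt4, -0.44, lay between -0.51 and -0.19 over the alternatives, lowest in size with the mean of all probes.

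For the Evi/Wls deletion 1 gene passed with the replicate block and 1 on the arrays of 1 line only, against 0, and 0 to 23 with an array left out, 23 without Evi-iECKO replicate 1. For the mean effect 6 passed with a trended and robust variance prior, 1 with the replicate block and 1 with sex as a factor, against 0, and 0 to 6 with an array left out, 6 without Evi-iECKO replicate 2. For the difference of the effects it was 0 to 6, with 6 without Evi-iECKO replicate 1. Between the wild-type groups 6 genes passed, against 11 without background correction, 45 under median scaling, 31 with the trended prior, 0 without a filter, 0 with the mean of all probes, 0 with sex as a factor, and 0 to 9 with an array left out. Between the lines 125 passed, 44 higher and 81 lower in the Evi/Wls line. The counts were 204 without background correction, 225 with normexp, 2927 under median scaling (55 higher and 2872 lower), 275 with the authors' values, 44 without a filter, 60 with array weights, 244 with the trended prior, and 14 to 325 with an array left out, 14 without Rspo3-WT replicate 2 and 325 without Evi-iECKO replicate 2. Of the VEGF genes 4 passed there under median scaling (Kdr -0.92, Flt4 -0.90, Nrp1 -0.60, Cxcr4 -0.79), and 0 with the authors' values, no filter, a stricter filter, array weights, sex as a factor, and 0 to 1 with an array left out.

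Values whose sign turned when an array was left out had these ranges. For the Rspo3 deletion they were -0.0667 to 0.0915 for Nrp1 and -0.42 to 0.20 for Esm1. With the Evi/Wls deletion they were -0.24 to 0.25 for Kdr, -0.54 to 0.37 for Flt1, -0.16 to 0.0607 for Nrp1, -0.42 to 0.21 for Vegfa and -0.29 to 0.28 for Esm1. In the mean effect they were -0.23 to 0.0129 for Kdr, -0.34 to 0.12 for Flt1, -0.0735 to 0.035 for Nrp1 and -0.25 to 0.0937 for Esm1. Between the wild-type groups they were -0.0429 to 0.19 for Flt1, -0.80 to 0.0642 for Nrp2 and -0.28 to 0.15 for Vegfa, and between the lines -0.12 to 0.34 for Flt1, -0.38 to 0.0919 for Nrp2 and -0.0483 to 0.27 for Vegfa. A group left with 1 array was assumed to vary like the others. The slide as a block was not run, since the file headers used here give no slides. The median SE was 0.22 within a line, where no difference of any size passed, and Nrp2 and Pgf are limited by signal near or under the background.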

Other observations

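Further genes of the VEGF pathway are named here after their values between the mouse lines were seen, and those named did not pass after adjustment. At an unadjusted limma p below 0.05, 5 of 38 genes below the receptors were higher and 1 lower. Of 24 tip cell and sprouting genes 3 were higher and 3 lower, and of 13 ligands and binding partners 0 and 2, against 15.3% of all genes. The shares of genes below the receptors and of ligands were near that of all genes, and the share of tip cell genes was above it. Median scaling moved the median of all genes by -0.17 in this comparison, so the values below depend on the scaling. They are values of the brightest probe of each gene. Nos3, the endothelial nitric oxide synthase that acts below VEGFR2, read 0.64 higher in the Evi/Wls line than in the Rspo3 line (SE 0.14, adjusted p = 0.0555 in limma). Angpt2, the vessel-destabilising angiopoietin of sprouting endothelium, read 0.58 and Iqgap1, a scaffold protein gene, 0.54. On the opposite side stood Cxcl12, the ligand of Cxcr4, at -0.41, Mmp14, a membrane-bound matrix protease gene, at -0.41, and Vegfb, a ligand of VEGFR1, at -0.35.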
